A study of Mus musculus with 57 samples.

Results

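The 10 genes described here encode secreted or membrane-bound metalloproteinases that cut the extracellular matrix, and their protein inhibitors: Timp1, Timp2, Timp3, Mmp2, Mmp3, Mmp8, Mmp9, Mmp10, Mmp14 and Adamts1. They were chosen by name, with earlier results of these data known, from the 19938 genes that had a probe set annotated with exactly 1 gene symbol. Each of the 10 had 1 such probe set, and all 10 passed the filter on low values, a log2 intensity above 5 in at least 3 arrays. A probe set's brightness depends on its probes, so levels are compared between samples of a gene and not between genes.

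Mouse kidneys were profiled after bilateral ischemia-reperfusion injury (IRI), in which the vessels of the 2 kidneys were closed with clamps for 28 min and then released. RNA bound to ribosomes was isolated from chosen cell populations by translating ribosome affinity purification (TRAP), an anti-GFP pull-down of a ribosomal protein L10a fused to eGFP. All mice were male, and the tag was an allele at Rosa26 behind the CAGGS promoter that becomes active where Cre recombinase has been expressed. Each array was hybridized with RNA labelled as a separate biological replicate.

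The tag was switched on by six2-CRE for the nephron, foxd1-CRE for the interstitial population, cdh5-CRE for vascular endothelium and lyz2-CRE for the population labelled macrophage/monocyte, called the myeloid line here. Each line had 3 arrays 24 h after IRI, 3 arrays 24 h after sham surgery (the same operation without clamping) and 3 arrays from unoperated mice (called no surgery). For the nephron there were 3 further arrays 4 h after IRI, for which the sham arrays taken at 24 h are the control. A pull-down from kidneys with the L10a allele but no Cre (L10a background) gave 4 IRI and 2 sham arrays. A pull-down from kidneys labelled wild type, without a tag (wild-type background), likewise gave 4 IRI and 2 sham arrays. Total kidney RNA from mice with the L10a allele and no Cre gave 3 IRI and 3 sham arrays, all background and total RNA groups being taken at 24 h.

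Age was not the same in all groups. Nephron IRI and sham mice were 8 weeks old, against 6 weeks in nephron mice without surgery. Myeloid IRI mice were 9.5 weeks old, against 7 weeks in myeloid sham mice and in myeloid mice without surgery. Interstitial and endothelial mice were 6 weeks old in all groups, and background and total RNA mice were 8 weeks old. Age and group cannot be told apart in the myeloid comparison of IRI with sham or in the nephron comparison of sham with no surgery. Age also differed between the wild-type background and the interstitial, endothelial and myeloid lines after IRI, between the myeloid and the other lines without surgery, and, through the myeloid IRI mice, in each comparison of responses between lines. The labels describe the L10a background mice as homozygous in one field and as carrying a single copy of the allele in another, and a strain field gives a mixed C57BL/6 and 129 background for every mouse. For the wild-type background mice, other fields give C57BL/6 alone, so whether they differ in strain from the lines is not settled, and strain may differ in each comparison of a line with the wild-type background. A Cre line also tags any other cell type in whose history that Cre was active.

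Matrix metalloproteinases are zinc enzymes that are mostly released as inactive precursors and act after their propeptide is removed, often by plasmin or by another metalloproteinase. Tissue inhibitors of metalloproteinases (TIMPs) occupy the active site and so set how much activity remains. In the kidney these enzymes remodel tubular basement membrane and interstitial matrix and take part in the passage of leukocytes. ADAMTS proteases are a related secreted family that cuts large proteoglycans. Mmp3, Mmp10 and Mmp8 belong to a cluster of metalloproteinase genes: on mouse chromosome 9 they start at positions 7445822, 7502342 and 7558429 of GRCm38.p6, in RefSeq's annotation.

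The bases just before the annotated starts of these 3 neighbours and of Timp1 and Adamts1 are shown because the fold change of each neighbour was highest in a different line (interstitial for Mmp3, nephron for Mmp10 and myeloid for Mmp8), and because Timp1 and Adamts1, like Mmp3 and Mmp14, rose in every line. RefSeq's promoter table (GRCm38.p6) held 8 of the 10 members, all except Mmp2 and Mmp9. Each run is the 150 bases before the start, written 5′ to 3′ on the gene's own strand, and capitals mark the AP-1 motif TGANTCA.
Mmp3, chr9:7445672-7445821, plus strand: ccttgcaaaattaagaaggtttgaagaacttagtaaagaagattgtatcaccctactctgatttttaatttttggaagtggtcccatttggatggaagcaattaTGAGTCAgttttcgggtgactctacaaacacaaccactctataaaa
Mmp10, chr9:7502192-7502341, plus strand: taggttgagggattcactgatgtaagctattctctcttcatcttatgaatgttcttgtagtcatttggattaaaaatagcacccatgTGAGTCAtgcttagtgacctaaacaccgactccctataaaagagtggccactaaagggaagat
Mmp8, chr9:7558279-7558428, plus strand: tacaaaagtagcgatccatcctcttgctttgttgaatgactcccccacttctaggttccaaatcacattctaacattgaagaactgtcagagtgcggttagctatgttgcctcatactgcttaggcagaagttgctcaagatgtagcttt
Timp1, chrX:20870016-20870165, plus strand: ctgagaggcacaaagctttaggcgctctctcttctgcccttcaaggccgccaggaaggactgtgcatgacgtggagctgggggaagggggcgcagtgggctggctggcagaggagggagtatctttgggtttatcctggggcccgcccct
Adamts1, chr16:85803114-85803263, minus strand: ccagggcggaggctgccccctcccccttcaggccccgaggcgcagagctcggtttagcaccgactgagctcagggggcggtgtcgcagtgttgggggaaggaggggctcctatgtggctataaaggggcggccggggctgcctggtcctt

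TGANTCA is the site bound by AP-1, the dimers of Fos and Jun family proteins, and reads the same in its fixed letters on either strand. Over the 250 bases before the start, 2 of the 8 members held it: Mmp3 with its first base 46 bases before the start and Mmp10 with its first base 63 bases before the start. Among all 27025 genes of the table, 7.82% held it in a window of that length. The TATA box letters TATAAA, searched on both strands and not overlapping AP-1 matches, were found in 3 of the 8 members, Mmp3, Mmp10 and Adamts1, against 14.3% of all genes. Their first base lay 7 bases before the annotated start in Mmp3, 29 in Mmp10 and 32 in Adamts1. The windows of Timp1 and Mmp8 held neither run of letters. A match is a description of letters and was not tested for binding.

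The 51 TRAP arrays had median intensities of 105.8 to 128.4, and the 6 arrays of total RNA had 43.92 to 53.3, so levels are not compared between those kinds of RNA. Pearson correlation between arrays of a group was taken over the 21789 probe sets with 1 gene symbol. It was at least 0.9855 in the lines and the L10a background. It was as low as 0.971 among the wild-type background IRI arrays and as low as 0.923 among the total RNA IRI arrays. Results in these last 2 groups are therefore also given without single arrays where a value moved. Among the 4 lines, interstitial, endothelial, macrophage and proximal tubule markers had their highest sums in the line labelled for those cells, but other lines held them too. The summed intensity of 17 interstitial, pericyte and mesangial markers was 37250 to 50400 in the interstitial line, and that of 17 endothelial markers was 64940 to 83330 in the endothelial line. The summed intensity of 20 macrophage, monocyte and dendritic cell markers was 97820 to 113300 in the myeloid line, 49910 to 84260 in the endothelial line and 9064 to 33020 in the interstitial line. The summed intensity of 19 proximal tubule markers was 75440 to 125000 in the nephron line, 47580 to 107800 in the interstitial line and 45840 to 82140 in the endothelial line. In the myeloid line that sum was 60230 to 85290 without surgery, 32650 to 61520 after sham and 19510 to 19760 after IRI. Other epithelial markers were mixed. Summed, 10 thick ascending limb and distal tubule markers had 17590 to 37240 in the nephron line and 13750 to 26550 in the interstitial line. They had 9256 to 15270 in the endothelial line and 6119 to 17540 in the myeloid line. By contrast, 10 podocyte markers summed to 6238 to 9870 in the nephron line. That was below the 10850 to 16020 of the interstitial and the 11810 to 14430 of the endothelial line. The sum of 13 collecting duct markers reached 11660 in the nephron line, against 18240 in the myeloid line. No probe set of these lists had a value of 0. More RNA of a gene in a pull-down can come from more tagged or trapped cells of a type or from more RNA per cell, and these cannot be told apart here.

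**Figure D1:**
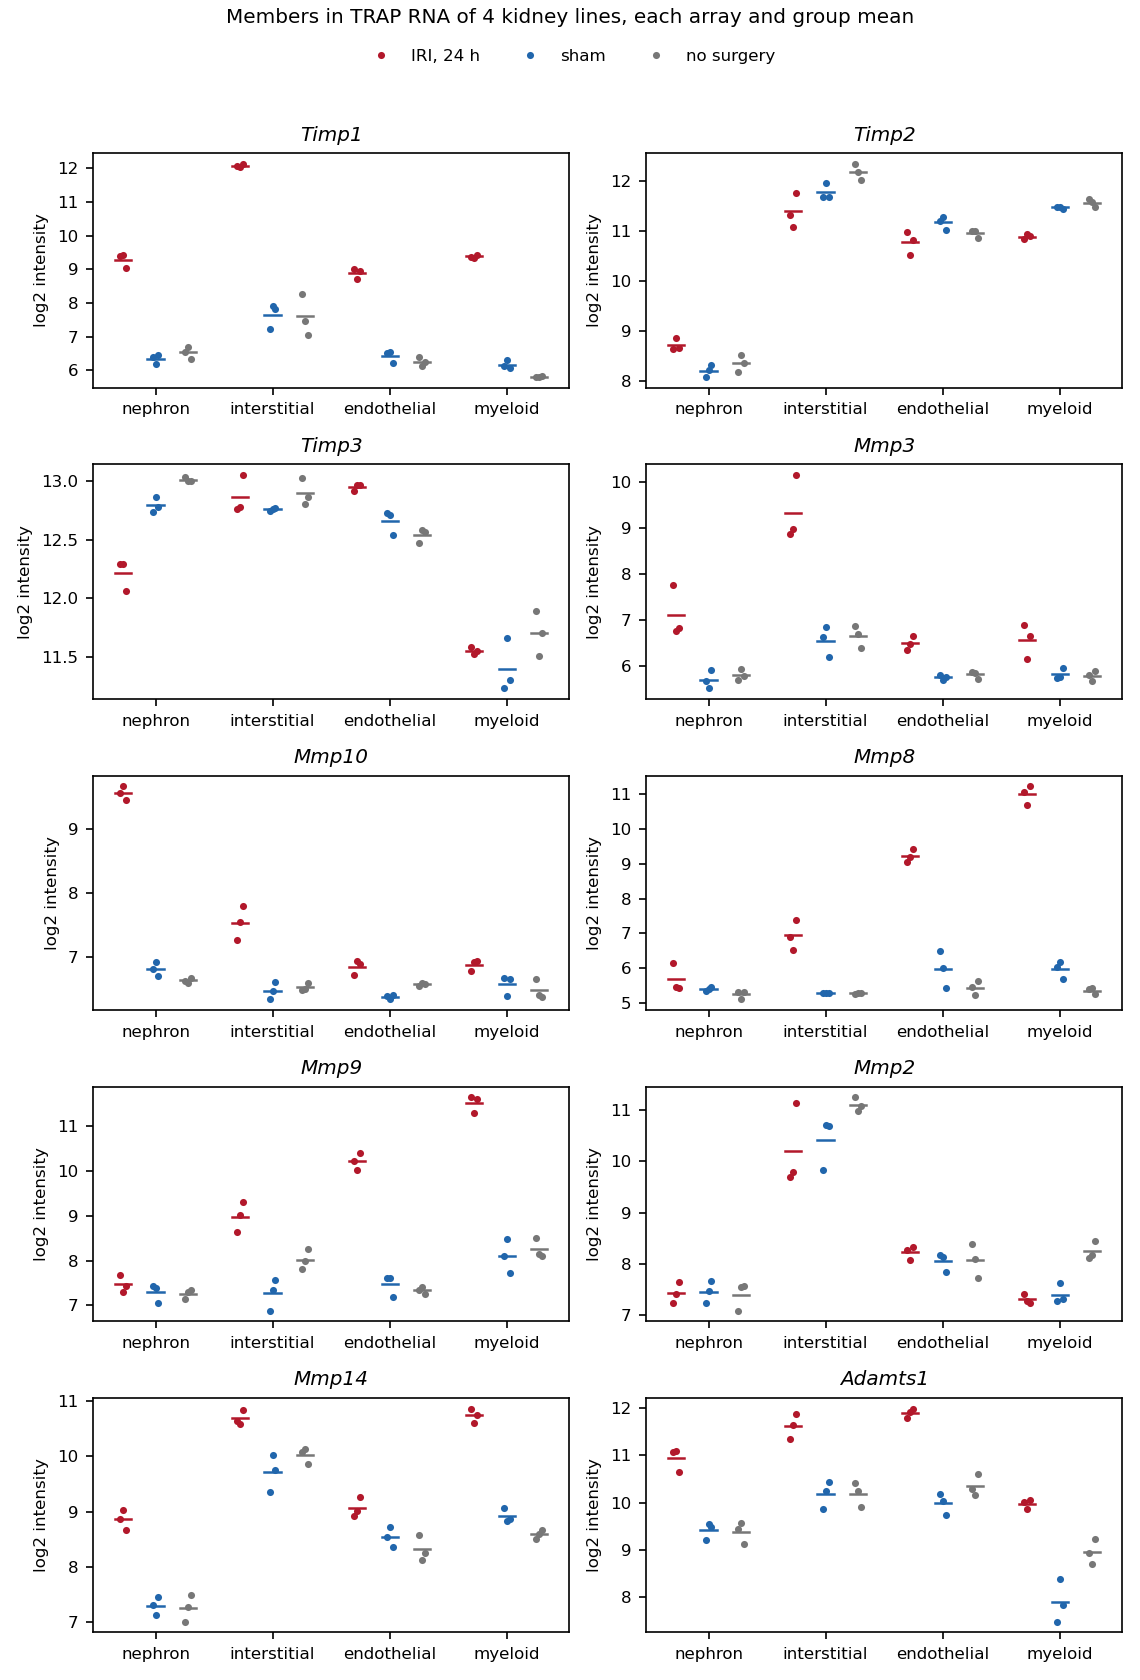
The plot shows the log2 intensity of each of the 10 genes (vertical axis) in the nephron, interstitial, endothelial and myeloid lines (horizontal axis). Points are single arrays (3 per group), short lines are group means, and colours stand for IRI at 24 h, sham and no surgery. Timp1 after IRI lies above both other groups in each line, while Mmp10 is high in the nephron line and Mmp8 and Mmp9 are high in the myeloid and endothelial lines.

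Most of the 10 genes passed the test for a response to IRI at 24 h in each line. In the nephron line 7 members passed the test (6 higher and 1 lower in IRI), against 28.6% of all genes tested. In the interstitial line 8 passed (7 higher and 1 lower), against 39.4% of all genes. In the endothelial line 8 passed (7 higher and 1 lower), against 43.2%, and in the myeloid line 7 passed (6 higher and 1 lower), against 27.9%. The test was limma's moderated test on log2 intensities with Benjamini-Hochberg adjustment over all 19244 genes of the fit, and a gene passed at an adjusted p under 0.05. The median log2 fold change of the 10 members was 0.96 in the nephron line, 1.25 in the interstitial line, 0.63 in the endothelial line and 1.28 in the myeloid line. The medians over all genes tested were -0.04, 0.05, 0.07 and -0.02 in that order of lines. Since the members were chosen with earlier results of these data known, setting them against all genes is a description and not a test.

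**Figure D2:**
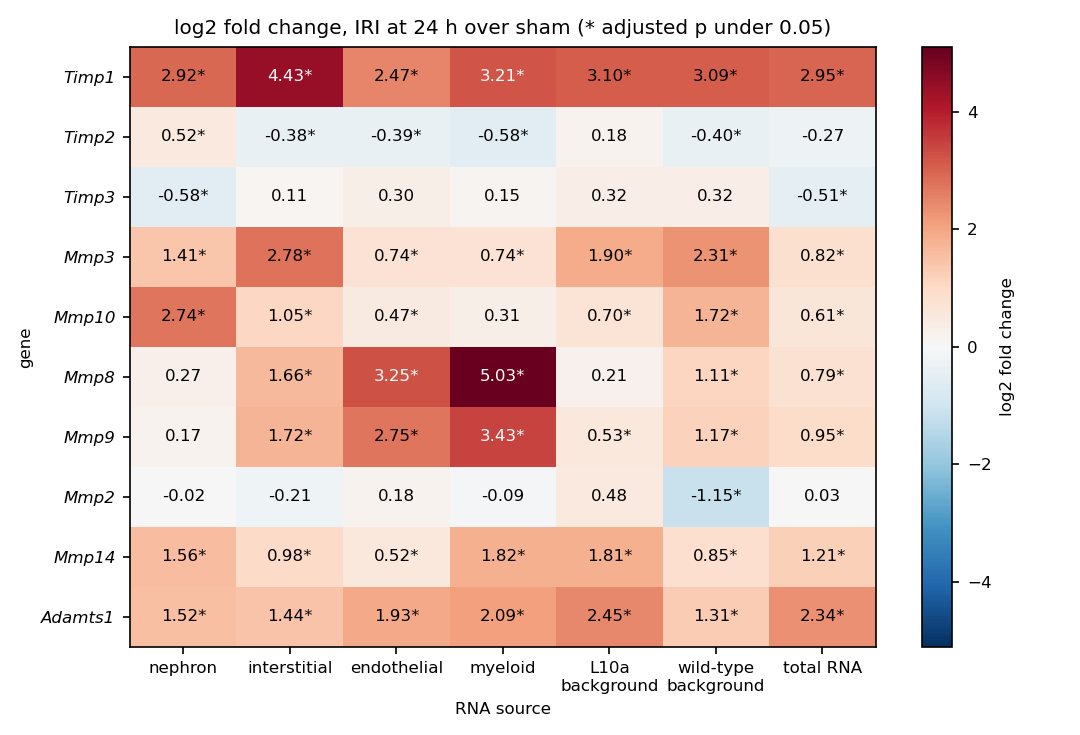
The heat map gives the log2 fold change of IRI over sham at 24 h for each gene (rows) in 7 sources of RNA (columns), on a colour scale where red is higher and blue is lower in IRI. A star marks an adjusted p under 0.05 in limma's test. The largest value is 5.03 for Mmp8 in the myeloid line, and Timp1 and Adamts1 carry a star in all 7 columns.

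Timp1, a secreted inhibitor of most matrix metalloproteinases that also acts as a growth factor for several cell types, rose in all 4 lines. Its log2 intensities in the interstitial line were 12.06, 12.03 and 12.13 after IRI, against 7.21, 7.91 and 7.81 after sham. The groups were far apart, and the log2 fold change of 4.43 ± 0.35 (SE, n = 3 each, adjusted p = 6.85e-12) was the fifth highest of all genes in that comparison. Its myeloid values were 9.38, 9.34 and 9.43 after IRI, against 6.13, 6.32 and 6.07 after sham, a log2 fold change of 3.21 ± 0.35 (adjusted p = 6.66e-09). Its nephron values were 9.39, 9.41 and 9.02 after IRI, against 6.40, 6.19 and 6.46 after sham, a log2 fold change of 2.92 ± 0.35 (adjusted p = 5.43e-08). The endothelial line showed the lowest of the 4 responses. There Timp1 had 9.02, 8.71 and 8.95 after IRI, against 6.51, 6.54 and 6.22 after sham (2.47 ± 0.35, adjusted p = 5.12e-07). IRI and sham arrays did not overlap in any line.

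Timp2, an inhibitor that also helps the membrane protease Mmp14 to activate Mmp2, moved little and in opposite directions. Its nephron values were 8.64, 8.87 and 8.67 after IRI, against 8.08, 8.23 and 8.32 after sham, a rise of 0.52 ± 0.13 (adjusted p = 0.00316) without overlap. Its myeloid values were 10.84, 10.93 and 10.89 after IRI, against 11.48, 11.48 and 11.45 after sham, so that it fell by 0.58 on the log2 scale (SE 0.13, adjusted p = 0.000989) without overlap. Its level in the other lines lay well above that in the nephron line in every group. Endothelial Timp2 fell by 0.39 (SE 0.13, adjusted p = 0.0173). That call was lost without IRI replicate 2 (adjusted p = 0.15) or without sham replicate 2 (adjusted p = 0.0836). Interstitial Timp2 fell by 0.38 (SE 0.13, adjusted p = 0.0233) with overlapping groups. That call was lost without IRI replicate 1 (adjusted p = 0.0707), without IRI replicate 2 (0.224) and without sham replicate 2 (0.133).

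Timp3, the inhibitor that stays bound to the matrix and also blocks ADAM and ADAMTS proteases, passed the test in the nephron line, where it fell. It had 12.29, 12.29 and 12.06 after IRI, against 12.74, 12.86 and 12.78 after sham, so that it fell by 0.58 on the log2 scale (SE 0.14, adjusted p = 0.00153). The nephron groups did not overlap. The log2 fold changes of Timp3 in the interstitial, endothelial and myeloid lines were 0.11, 0.30 and 0.15, with adjusted p of 0.578, 0.0871 and 0.484. The endothelial groups did not overlap, and the endothelial rise passed in a limma fit of those groups alone (adjusted p = 0.01). The difference between the nephron response and the mean of the other 3 was itself tested: -0.77 ± 0.16 (adjusted p = 0.00063).

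Mmp3 and Mmp10 are stromelysins, secreted enzymes of broad specificity that cut proteoglycans, fibronectin and basement membrane proteins and activate other metalloproteinases. Their responses differed by line although the genes are neighbours. Mmp3 had 8.88, 8.97 and 10.15 in the interstitial line after IRI, against 6.64, 6.84 and 6.19 after sham, a log2 fold change of 2.78 ± 0.24 (adjusted p = 4.62e-11). Its nephron values were 7.76, 6.77 and 6.82 after IRI, against 5.68, 5.52 and 5.91 after sham, a log2 fold change of 1.41 ± 0.24 (adjusted p = 1.94e-05). In each of these lines 1 IRI array stood well above the others, and no IRI array overlapped sham. Endothelial Mmp3 rose by 0.74 ± 0.24 (adjusted p = 0.0126), and that call was lost without IRI replicate 3 (adjusted p = 0.0548). Myeloid Mmp3 rose by 0.74 ± 0.24 (adjusted p = 0.0181). The myeloid call was lost without IRI replicate 1 (adjusted p = 0.127), IRI replicate 3 (0.0647), sham replicate 1 (0.0618) or sham replicate 2 (0.0547).

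Mmp10 responded most in the nephron line. It had 9.56, 9.66 and 9.45 after IRI, against 6.81, 6.93 and 6.71 after sham, a log2 fold change of 2.74 ± 0.13 (adjusted p = 1.69e-16), the second smallest p of all genes there. Its interstitial values were 7.26, 7.55 and 7.79 after IRI, against 6.35, 6.47 and 6.62 after sham, a log2 fold change of 1.05 ± 0.13 (adjusted p = 8.04e-08). The endothelial rise was 0.47 ± 0.13 (adjusted p = 0.00416). None of these 3 comparisons had overlapping arrays. The myeloid value was 0.31 ± 0.13, which did not pass (adjusted p = 0.0831) but did after quantile normalization (adjusted p = 0.0415). The nephron response of Mmp10 exceeded the mean of the other 3 by 2.13 ± 0.15 (adjusted p = 3.59e-12), whereas that difference for Mmp3 was -0.01 ± 0.28 (adjusted p = 0.991). The interstitial response of Mmp3 exceeded the mean of the other 3 by 1.81 ± 0.28 (adjusted p = 1.45e-05).

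Mmp8, the neutrophil collagenase stored in neutrophil granules, and Mmp9, gelatinase B, which neutrophils and macrophages release and which cuts type IV collagen, rose together. Mmp8 had 11.07, 10.69 and 11.23 in the myeloid line after IRI, against 6.04, 6.18 and 5.68 after sham, a log2 fold change of 5.03 ± 0.21 (adjusted p = 1.55e-19), the third highest of all genes. Its endothelial values were 9.05, 9.18 and 9.41 after IRI, against 6.50, 5.99 and 5.42 after sham, a log2 fold change of 3.25 ± 0.21 (adjusted p = 1.9e-14). Its interstitial values were 6.91, 6.53 and 7.39 after IRI, against 5.29, 5.28 and 5.28 after sham, a log2 fold change of 1.66 ± 0.21 (adjusted p = 6.67e-08). IRI lay above sham without overlap in these 3 lines. The interstitial sham values were low. They lay below the lower quartile of log2 intensity of every TRAP array, which ran from 5.38 to 5.64. The nephron values of Mmp8 were 6.14, 5.45 and 5.42 after IRI, against 5.35, 5.39 and 5.46 after sham. The groups overlapped there and the value of 0.27 ± 0.21 did not pass (adjusted p = 0.362).

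Mmp9 showed the same order of lines. It had 11.65, 11.30 and 11.62 in the myeloid line after IRI, against 8.11, 8.47 and 7.71 after sham, a log2 fold change of 3.43 ± 0.18 (adjusted p = 1.32e-16). Its endothelial values were 10.22, 10.02 and 10.41 after IRI, against 7.61, 7.62 and 7.18 after sham (2.75 ± 0.18, adjusted p = 4.7e-14). Its interstitial values were 8.64, 9.01 and 9.31 after IRI, against 6.88, 7.35 and 7.57 after sham (1.72 ± 0.18, adjusted p = 2.59e-09). Again no arrays overlapped in these 3 lines. The nephron value of 0.17 ± 0.18 did not pass (adjusted p = 0.543), and its groups overlapped.

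Many neutrophil markers rose in the lines where both genes rose. Their summed intensity also rose in the nephron line, where neither gene passed. Of 14 measured neutrophil markers, 10 were called higher in the myeloid line, 11 in the endothelial line, 9 in the interstitial line and 4 in the nephron line, against 27.9%, 43.2%, 39.4% and 28.6% of all genes called in either direction. The nephron count is thus at the share of all genes. The summed intensity of these 14 was 28720 to 35070 in myeloid IRI arrays, against 5601 to 6434 in myeloid sham arrays. It was 18360 to 20010 in endothelial IRI arrays, against 3121 to 5646 in endothelial sham arrays. It was 9540 to 11090 in interstitial IRI arrays, against 1301 to 1467 in interstitial sham arrays, and 8721 to 9099 in nephron IRI arrays, against 2079 to 2730 in nephron sham arrays. In the wild-type background it was 7616 to 10930 after IRI, against 1180 to 1192 after sham. In the L10a background it was 8215 to 9320 after IRI, against 4086 to 5226 after sham, where 1 of the 14 was called higher and Mmp8 had a log2 fold change of 0.21 ± 0.23 that did not pass (adjusted p = 0.492). The list includes Lcn2, which injured tubule cells also make, and Itgam, which macrophages share. The part of neutrophil RNA in the values of Mmp8 and Mmp9 was not tested.

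Mmp14, the membrane-type protease that activates Mmp2 at the cell surface, rose in all 4 lines. Its myeloid values were 10.87, 10.60 and 10.75 after IRI, against 9.06, 8.83 and 8.87 after sham, a log2 fold change of 1.82 ± 0.14 (adjusted p = 5.55e-12). Its nephron values were 8.87, 9.04 and 8.68 after IRI, against 7.31, 7.14 and 7.46 after sham, a log2 fold change of 1.56 ± 0.14 (adjusted p = 3.5e-10). The interstitial line rose by 0.98 ± 0.14 (adjusted p = 1.29e-06) and the endothelial line by 0.52 ± 0.14 (adjusted p = 0.00363). IRI and sham arrays did not overlap in any of the 4 lines. After IRI the nephron line thus reached 8.68 to 9.04, close to the 8.83 to 9.06 of myeloid sham arrays.

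Mmp2, gelatinase A, the enzyme that Mmp14 and Timp2 activate, did not pass in any line. Its interstitial values were 9.69, 9.78 and 11.13 after IRI, against 9.83, 10.71 and 10.68 after sham, with a log2 fold change of -0.21 ± 0.25 (adjusted p = 0.535). The IRI array at 11.13 was replicate 3. Without it the value was -0.67 ± 0.21 and passed (adjusted p = 0.0149), so the interstitial result for Mmp2 depends on that array. The same array was the highest of the 3 interstitial IRI arrays for all 10 members. The nephron, endothelial and myeloid values were -0.02, 0.18 and -0.09, each with an SE of 0.25 and overlapping groups.

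Adamts1, a secreted protease of aggrecan and versican with anti-angiogenic activity, rose in all 4 lines. Its myeloid values were 10.01, 9.87 and 10.05 after IRI, against 7.47, 8.37 and 7.83 after sham, a log2 fold change of 2.09 ± 0.23 (adjusted p = 7.04e-09). Its endothelial values were 11.80, 11.93 and 12.00 after IRI, against 10.17, 10.04 and 9.73 after sham (1.93 ± 0.23, adjusted p = 1.81e-08). The nephron line rose by 1.52 ± 0.23 (adjusted p = 2.68e-06) and the interstitial line by 1.44 ± 0.23 (adjusted p = 4.09e-06). No arrays overlapped. A moderated F test of whether the 4 responses differ did not pass for Adamts1 (adjusted p = 0.225) or Mmp2 (adjusted p = 0.783). It passed for the other 8 members, against 46.6% of all genes tested, with the largest adjusted p for Timp1 at 0.00901. Set against the mean response of the other 3 lines, 6 members differed in the nephron line (3 higher and 3 lower), against 23.3% of all genes tested. The same comparison called 3 members for the interstitial line against 15.9% of all genes, 6 for the endothelial line against 29% and 6 for the myeloid line against 18.5%.

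In the nephron line at 4 h, Adamts1 and Timp2 passed among the 10, both higher. That count is near the share of all genes tested, 18.1%. Adamts1 had 11.81, 11.61 and 11.95 at 4 h after IRI, against 9.20, 9.55 and 9.49 after sham, a log2 fold change of 2.38 ± 0.23 (adjusted p = 1.55e-09). Timp2 had 8.70, 8.88 and 8.44 at 4 h, against 8.08, 8.23 and 8.32 after sham (0.46 ± 0.13, adjusted p = 0.0128). The Timp2 call was lost without IRI replicate 2 at 4 h (adjusted p = 0.107) or without sham replicate 1 (adjusted p = 0.0724). Timp1 at 4 h had 6.76, 7.73 and 6.25, which overlapped sham, and its value of 0.56 ± 0.35 did not pass (adjusted p = 0.301). Mmp10 at 4 h had 6.59, 7.18 and 6.72, a log2 fold change of 0.01 ± 0.13 (adjusted p = 0.965). Mmp3, Mmp8, Mmp9, Mmp14, Mmp2 and Timp3 lay between -0.01 and 0.30 and did not pass.

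From 4 h to 24 h after IRI 6 members changed in the nephron line, 4 higher and 2 lower, against 27.7% of all genes tested. Mmp10 was 2.73 ± 0.13 higher at 24 h than at 4 h (adjusted p = 3.96e-16), the smallest p of all genes in this comparison. Timp1 was 2.36 ± 0.35 higher (adjusted p = 2.53e-06), Mmp3 was 1.28 ± 0.24 higher (adjusted p = 7.94e-05) and Mmp14 was 1.26 ± 0.14 higher (adjusted p = 2.91e-08). Adamts1 ran the other way. It had 11.07, 11.09 and 10.64 at 24 h, against 11.81, 11.61 and 11.95 at 4 h, and so fell by 0.85 on the log2 scale (SE 0.23, adjusted p = 0.00407). Timp3 fell by 0.70 (SE 0.14, adjusted p = 0.000176). The 24 h and 4 h comparisons with sham use the same 3 sham arrays.

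**Figure D3:**
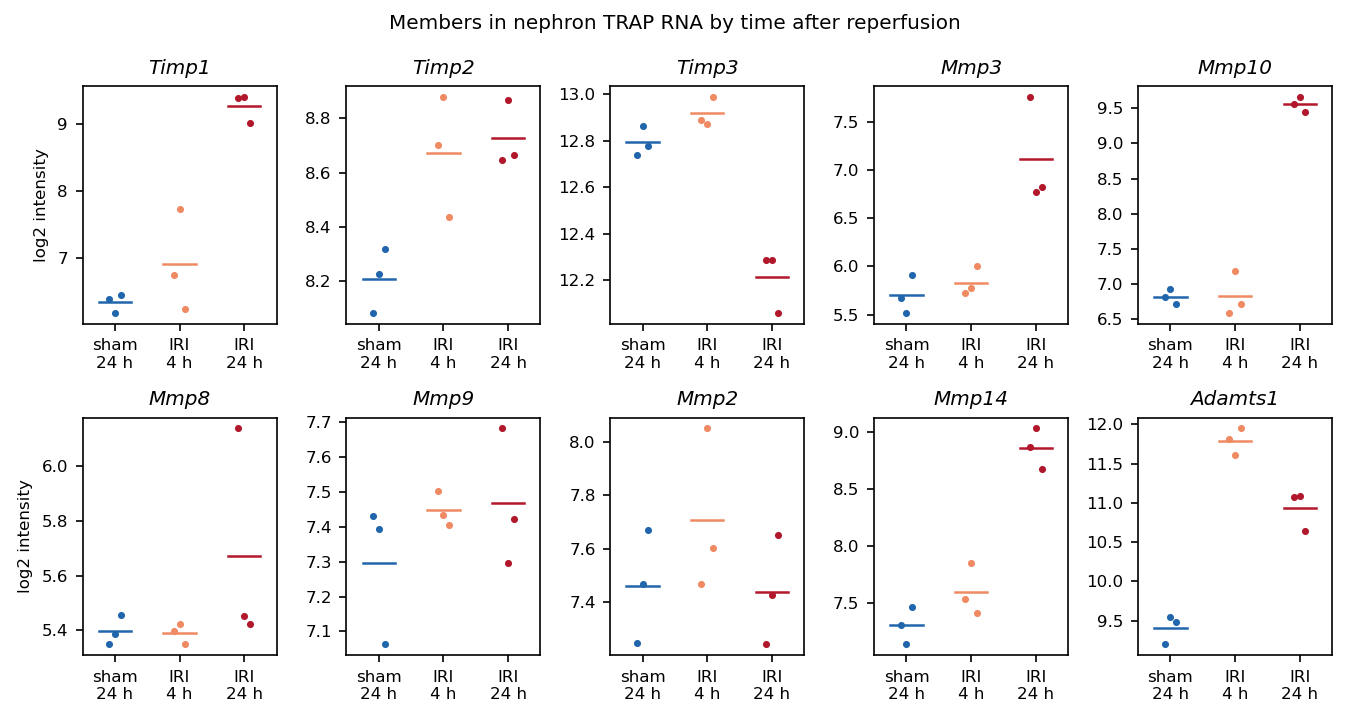
The plot gives log2 intensity (vertical axis) in nephron TRAP RNA after sham surgery and at 4 h and 24 h after IRI (horizontal axis), with a panel per gene, 3 arrays per group as points and group means as lines. Adamts1 is highest at 4 h, between 11.61 and 11.95, while Timp1, Mmp3, Mmp10 and Mmp14 are highest at 24 h.

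Few members passed between sham and no surgery. No more than 10.3% of all genes passed in any line, so the low counts are not particular to the members. In the nephron line none passed between sham and no surgery, against 1.62% of all genes tested, and at an unadjusted p under 0.05 the limma test also called 0 of them. The smallest unadjusted p was 0.129, for Timp3. In the endothelial line none passed, against 0.738% of all genes. Without endothelial sham replicate 3, Mmp8 passed there at 0.81 ± 0.21 (adjusted p = 0.0491). With all arrays, Mmp8 had an adjusted p of 0.505 and was the only member with an unadjusted p under 0.05 there (limma, 0.0137). In the interstitial line 2 members passed, both lower after sham, against 10.3% of all genes. Mmp9 had 6.88, 7.35 and 7.57 after sham, against 7.81, 7.99 and 8.26 without surgery, and so fell by 0.76 (SE 0.18, adjusted p = 0.00571). That call was lost without sham replicate 1 (adjusted p = 0.0535). Timp2 fell by 0.41 (SE 0.13, adjusted p = 0.047), a call lost without sham replicate 1 (adjusted p = 0.133), sham replicate 3 (0.189), no-surgery replicate 1 (0.223) or no-surgery replicate 2 (0.109).

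In the myeloid line 1 member passed between sham and no surgery, against 1.68% of all genes tested. Adamts1 had 7.47, 8.37 and 7.83 after sham, against 8.93, 8.70 and 9.22 without surgery, and so fell by 1.06 (SE 0.23, adjusted p = 0.0098). The call was lost without sham replicate 1 (adjusted p = 0.16), sham replicate 3 (0.0684) or no-surgery replicate 3 (0.116). Myeloid Adamts1 after IRI, at 9.87 to 10.05, lay above both groups. Myeloid Mmp2 had values of 7.27, 7.63 and 7.31 after sham, against 8.11, 8.19 and 8.44 without surgery (-0.84 ± 0.25, adjusted p = 0.0828).

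In kidneys without surgery many members were high in the interstitial line, though not all had their highest level there. Set against the mean of the other 3 lines, 8 of the 10 members passed and were higher there, where 32.7% of all genes passed in either direction. Mmp2 was the most distinct, at 11.24, 10.97 and 11.07 in the interstitial line, against a mean of 7.91 over the other lines (3.19 ± 0.20, adjusted p = 5.89e-15). Mmp14 was 1.97 ± 0.12 higher (adjusted p = 1.23e-15), Timp2 was 1.88 ± 0.11 higher (adjusted p = 5.77e-16) and Timp1 was 1.40 ± 0.29 higher (adjusted p = 0.000169). Mmp2, its activator Mmp14 and their partner Timp2 were all highest in this line. Mmp3 (0.85 ± 0.20), Adamts1 (0.63 ± 0.19), Timp3 (0.48 ± 0.11) and Mmp9 (0.40 ± 0.15) were also higher than that mean. For Timp3, Adamts1 and Mmp9, however, the group mean was higher in another line. It was 13.01 in the nephron line for Timp3, 10.36 in the endothelial line for Adamts1 and 8.25 in the myeloid line for Mmp9. Their interstitial means were 12.90, 10.19 and 8.02. The Mmp9 call was lost without interstitial replicate 2 or 3, myeloid replicate 2 or 3 or nephron replicate 1 (adjusted p 0.0509 to 0.225), and the Adamts1 call was lost without interstitial replicate 1 (adjusted p = 0.0793).

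The nephron line without surgery had 6 members passing (1 higher and 5 lower), against 51.3% of all genes. Timp2 was 3.21 lower than the mean of the other lines on the log2 scale (log2 difference -3.21 ± 0.11, adjusted p = 2.13e-22), at 8.18, 8.53 and 8.36. Mmp2 (-1.73 ± 0.20), Mmp14 (-1.72 ± 0.12), Mmp9 (-0.61 ± 0.15) and Adamts1 (-0.46 ± 0.19) were lower too. The Adamts1 call was lost without nephron replicate 1 or 3, interstitial replicate 1 or 2, endothelial replicate 3 or myeloid replicate 3 (adjusted p 0.0507 to 0.236). Timp3 was higher in the nephron line (0.63 ± 0.11, adjusted p = 1.61e-05).

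In the myeloid line without surgery 6 members passed (2 higher and 4 lower), against 37.7% of all genes. Timp2 (1.07 ± 0.11) and Mmp9 (0.71 ± 0.15) were higher, while Timp3 (-1.12 ± 0.11), Adamts1 (-1.02 ± 0.19), Timp1 (-0.98 ± 0.29) and Mmp2 (-0.61 ± 0.20) were lower. The Mmp2 call was lost without myeloid replicate 1 (adjusted p = 0.0842) or myeloid replicate 2 (adjusted p = 0.0659). In the endothelial line 4 members passed (1 higher and 3 lower), against 41.1% of all genes. Adamts1 was higher (0.85 ± 0.19), and Mmp2 (-0.84 ± 0.20), Mmp9 (-0.50 ± 0.15) and Mmp14 (-0.31 ± 0.12) were lower. The Mmp14 call there was lost without endothelial replicate 2 or 3, interstitial replicate 1 or 2, myeloid replicate 3 or nephron replicate 3 (adjusted p 0.0516 to 0.265). Timp2, at 0.26 ± 0.11 in the endothelial line, did not pass (adjusted p = 0.0573) but did without interstitial replicate 1 (0.038) or nephron replicate 2 (0.0361).

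Ordered over the 17 TRAP groups, the members had different peaks. Timp1 and Mmp3 were highest in interstitial IRI arrays, Mmp10 in nephron IRI arrays and Mmp8 and Mmp9 in myeloid IRI arrays followed by endothelial IRI arrays. In each of these orders the top group did not overlap the next. Timp2 and Mmp2 were highest in interstitial arrays without surgery, again without overlap with the next group. Mmp14 was highest in myeloid IRI arrays, which overlapped the interstitial IRI arrays that came next. Adamts1 was highest in the wild-type background IRI arrays, and Timp3 was highest in nephron arrays without surgery.

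The pull-downs without Cre or without a tag select no cell type by Cre, but their RNA was not alike. In sham arrays the summed intensity of the collecting duct markers was 43330 to 43930 in the L10a background and 12510 to 13130 in the wild-type background. The podocyte sum was 20260 to 22350 in the L10a background and 8647 to 10460 in the wild-type background, and the proximal tubule sum was 38430 to 58930 in the L10a background and 125400 to 129300 in the wild-type background. In the wild-type background 9 members passed (7 higher and 2 lower in IRI), against 37.9% of all genes tested. In the L10a background 6 passed, all higher, against 38.4%. Mmp3 in the wild-type background had 7.92, 7.65, 8.58 and 8.19 after IRI, against 5.88 and 5.68 after sham, a log2 fold change of 2.31 ± 0.26 (adjusted p = 1.29e-09). Mmp10 in the wild-type background had 7.72, 8.30, 8.81 and 8.15 after IRI, against 6.67 and 6.39 after sham (1.72 ± 0.17, adjusted p = 5.63e-11). Both genes rose less in the L10a background in IRI, by 1.90 ± 0.26 for Mmp3 and 0.70 ± 0.17 for Mmp10. The difference between the backgrounds was not tested.

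Timp1 in the wild-type background had 10.19, 7.37, 9.82 and 9.60 after IRI, against 6.08 and 6.24 after sham. Replicate 2 lay more than 2 log2 units below the other IRI arrays but above both sham arrays. The log2 fold change was 3.09 ± 0.46 (adjusted p = 5.55e-07), and 3.71 without replicate 2 (adjusted p = 2.03e-10). Mmp2 in this background had 9.45, 8.72, 8.40 and 8.26 after IRI, against 9.73 and 9.98 after sham, and so fell by 1.15 on the log2 scale (SE 0.27, adjusted p = 0.000569). That was the only comparison of IRI with sham in which Mmp2 passed in the main fits. In the L10a background Mmp2 moved the other way, with 7.91, 8.04, 7.79 and 7.98 after IRI, against 7.38 and 7.52 after sham. That rise of 0.48 did not pass in the main fit but did in a limma fit of those groups alone (adjusted p = 0.00326). Adamts1 rose in both backgrounds in IRI, by 2.45 ± 0.23 in the L10a background and by 1.31 ± 0.23 in the wild-type background. The fall of Timp2 in the wild-type background (log2 fold change -0.40 ± 0.15, adjusted p = 0.0373) was lost without IRI replicate 2, 3 or 4 or without either sham array, with adjusted p between 0.0545 and 0.25. The rise of Mmp9 in the L10a background (0.53 ± 0.21, adjusted p = 0.0406) was lost without IRI replicate 2, 3 or 4 or without either sham array, with adjusted p between 0.0506 and 0.35.

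**Figure D4:**
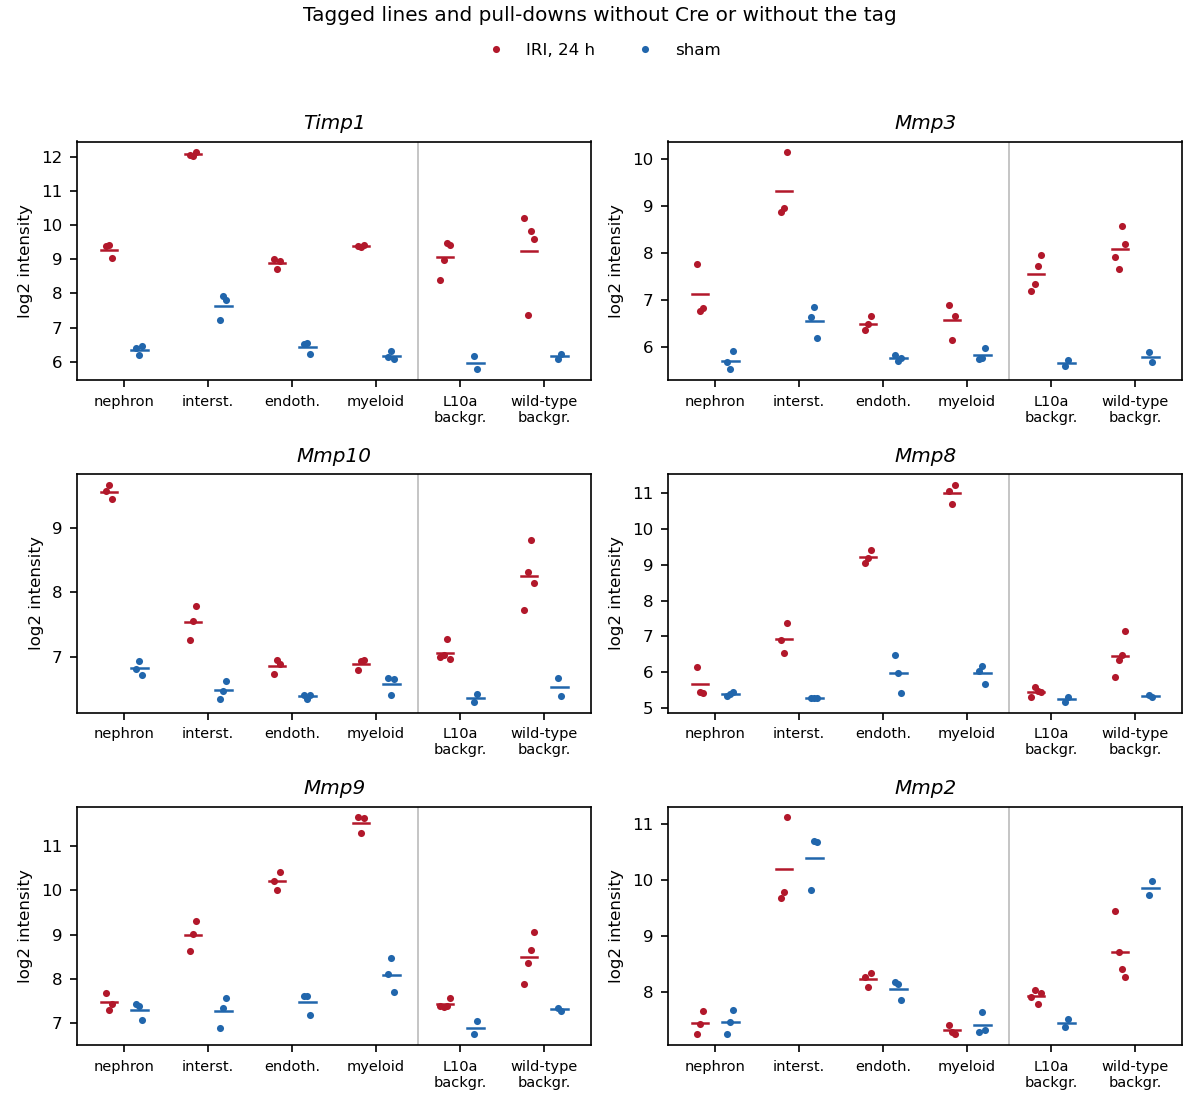
The plot sets log2 intensity (vertical axis) of 6 genes after IRI beside sham, in the 4 lines left of the grey line and in the 2 backgrounds right of it (horizontal axis). Points are single arrays and short lines are group means. After IRI, Mmp8 and Mmp9 in the myeloid and endothelial lines and Timp1 in the interstitial line lie above both backgrounds, while Timp1 in the nephron, endothelial and myeloid lines overlaps them.

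The lines were also set directly against the wild-type background after IRI, and several members were higher in more than 1 line: Timp2 and Mmp9 in the interstitial, endothelial and myeloid lines, Mmp14 in the interstitial and myeloid lines and Mmp8 in the endothelial and myeloid lines. In the interstitial line 8 members differed (6 higher and 2 lower), against 34.1% of all genes tested: Timp1 (2.83 ± 0.41), Timp2 (1.74 ± 0.14), Mmp2 (1.49 ± 0.24), Mmp3 (1.25 ± 0.23), Mmp14 (1.14 ± 0.14) and Mmp9 (0.50 ± 0.19) were higher. Timp1 there was 2.21 higher without wild-type background replicate 2. The Mmp9 call was lost without interstitial IRI replicates 2 or 3 or wild-type background replicates 1 or 2 (adjusted p 0.0797 to 0.234). Mmp10 (-0.71 ± 0.15) and Adamts1 (-0.55 ± 0.21) were lower, the Adamts1 call being lost without interstitial IRI replicates 1 or 2 or wild-type background replicates 3 or 4 (adjusted p 0.0541 to 0.198). Mmp8, at 0.49 ± 0.21, did not pass (adjusted p = 0.0647) but did without interstitial IRI replicate 2 (0.0162) or wild-type background replicate 4 (0.00425). In the nephron line 9 differed (1 higher and 8 lower), against 44% of all genes, and the member that was higher was Mmp10 (1.31 ± 0.15, adjusted p = 1.09e-09). Timp2, Timp3, Mmp2, Mmp3, Mmp8, Mmp9, Mmp14 and Adamts1 were lower. Among these, Timp2, Mmp3, Mmp14 and Adamts1 had passed as higher in IRI than in sham in the nephron line. Their nephron IRI means were 8.73, 7.12, 8.86 and 10.94, against 9.65, 8.08, 9.56 and 12.18 in this background. Timp1 in nephron IRI arrays differed from this background by 0.03 ± 0.41 (adjusted p = 0.963), and by -0.59 without wild-type background replicate 2 (adjusted p = 0.17).

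In the myeloid line 9 members differed from the wild-type background after IRI (4 higher and 5 lower), against 58.2% of all genes tested. Mmp8 was 4.54 ± 0.21 higher, Mmp9 was 3.04 ± 0.19 higher, Timp2 was 1.24 ± 0.14 higher and Mmp14 was 1.18 ± 0.14 higher. Timp3, Mmp2, Mmp3, Mmp10 and Adamts1 were lower. In the endothelial line 6 differed (3 higher and 3 lower), against 49.6% of all genes. Mmp8 (2.76 ± 0.21), Mmp9 (1.73 ± 0.19) and Timp2 (1.12 ± 0.14) were higher there, and Mmp3, Mmp10 and Mmp14 were lower. Timp1 did not pass in the endothelial line (-0.35 ± 0.41, adjusted p = 0.507), but without wild-type background replicate 2 it was lower by this test (-0.97, adjusted p = 0.0165). Mmp2 likewise passed as lower in the endothelial line (-0.63, adjusted p = 0.034) without wild-type background replicate 4, against -0.48 ± 0.24 with it (adjusted p = 0.0923).

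In total kidney RNA 8 members passed (7 higher and 1 lower in IRI), against 31% of all genes tested. Timp1 had 7.93, 9.06 and 6.47 after IRI, against 5.08, 4.70 and 4.82 after sham, a log2 fold change of 2.95 ± 0.35 (adjusted p = 6.38e-08). The IRI arrays spanned more than 2 log2 units but none overlapped sham, and the value was 3.62 without replicate 3 and 2.33 without replicate 2. Adamts1 rose by 2.34 ± 0.23, Mmp14 by 1.21 ± 0.14, Mmp9 by 0.95 ± 0.18, Mmp3 by 0.82 ± 0.24, Mmp8 by 0.79 ± 0.21 and Mmp10 by 0.61 ± 0.13. Mmp8 was near the floor there, at 4.76, 5.23 and 4.46 after IRI, against 4.04, 4.03 and 4.02 after sham, so that 1 of the 6 arrays was above the log2 intensity of 5 that the filter asks for. It was tested because TRAP arrays passed the filter. All sham arrays of Mmp3 were also below 5, at 4.60, 4.77 and 4.49. So were sham replicates 2 and 3 of Timp1 and sham replicate 3 of Mmp10. Timp3 fell by 0.51 (SE 0.14, adjusted p = 0.00553), with 12.40, 12.19 and 11.39 after IRI, against 12.47, 12.55 and 12.48 after sham. Without IRI replicate 3 the fall of Timp3 was 0.21 and did not pass (adjusted p = 0.149). Fitted on the 6 total RNA arrays alone, 3 members passed in place of 8: Timp1 (adjusted p = 0.052), Timp3 (0.345), Mmp3 (0.0802) and Mmp10 (0.15) lost their calls, and Mmp8 did not pass the filter and was not tested.

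The counts for other genes of the pathway are to be read against the share of all genes called in either direction after IRI at 24 h, which was 28.6% in the nephron, 39.4% in the interstitial, 43.2% in the endothelial and 27.9% in the myeloid line. Of 16 further matrix metalloproteinases measured, 3 were called higher and 1 lower in the nephron line after IRI, 1 and 4 in the interstitial line, 5 and 4 in the endothelial line and 3 and 3 in the myeloid line. Mmp19, a basement membrane protease of macrophages and vessels, was higher in all 4 lines in IRI, by 3.85 ± 0.19 in the myeloid, 2.23 ± 0.19 in the interstitial, 1.58 ± 0.19 in the endothelial and 0.85 ± 0.19 in the nephron line. Mmp7, matrilysin, which injured epithelia release, rose in the nephron line (1.67 ± 0.20, adjusted p = 3.91e-08). Mmp13, a collagenase, fell in the interstitial (log2 fold change -1.25 ± 0.28), endothelial (-2.00 ± 0.28) and myeloid (-2.20 ± 0.28) lines.

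Of 13 measured other inhibitors, 4 were called higher and 1 lower in the nephron line, 3 and 1 in the interstitial, 3 and 2 in the endothelial and 2 and 1 in the myeloid line. Thbs1, thrombospondin 1, which binds metalloproteinases and activates TGF-beta, rose by 2.94 ± 0.18 in the myeloid, 2.40 ± 0.18 in the endothelial and 2.00 ± 0.18 in the interstitial line, and by 1.31 ± 0.18 in the nephron line at 4 h. Timp4, the remaining TIMP, fell in the endothelial line (log2 fold change -1.26 ± 0.17, adjusted p = 1.53e-07). Tfpi2, an inhibitor of plasmin, rose in the interstitial (2.45 ± 0.17), endothelial (1.28 ± 0.17) and myeloid (0.48 ± 0.17, adjusted p = 0.0323) lines and fell in the nephron line (-0.79 ± 0.17).

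Of 22 measured other ADAMTS genes, 3 were called higher and 3 lower in the nephron line, 5 and 3 in the interstitial, 7 and 1 in the endothelial and 3 and 2 in the myeloid line. Adamts4, an aggrecanase related to Adamts1, rose by 2.60 ± 0.24 in the interstitial, 1.29 ± 0.24 in the myeloid and 1.24 ± 0.24 in the endothelial line. Of 9 ADAM sheddases, 3 were called higher in the nephron line, 4 in the interstitial and 3 in the myeloid line, while in the endothelial line 1 was called higher and 4 lower. Adam8, a sheddase of leukocytes, rose in all 4 lines, by 3.54 ± 0.17 in the myeloid, 1.88 ± 0.17 in the interstitial, 1.85 ± 0.17 in the endothelial and 1.16 ± 0.17 in the nephron line.

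Among 22 measured genes that activate or bind metalloproteinases, 9 were called higher and 4 lower in the nephron line, 9 and 6 in the interstitial, 10 and 3 in the endothelial and 9 and 6 in the myeloid line. Plaur, the receptor that holds the plasminogen activator urokinase at the cell surface, rose by 4.00 ± 0.22 in the interstitial, 3.83 ± 0.22 in the nephron, 3.29 ± 0.22 in the myeloid and 2.31 ± 0.22 in the endothelial line. Mep1b, the brush border protease meprin beta, fell in all 4 lines, with log2 fold changes of -3.31 ± 0.35 in the nephron, -3.73 ± 0.35 in the interstitial, -2.55 ± 0.35 in the endothelial and -2.91 ± 0.35 in the myeloid line. Of 30 measured matrix genes that are substrates, 7 were called higher and 5 lower in the nephron line, 8 and 5 in the interstitial, 9 and 1 in the myeloid and 8, all higher, in the endothelial line. Tnc, tenascin C of the provisional matrix, rose in all 4 lines (2.78 to 3.11), and Vcan, versican, a substrate of Adamts1, rose in the myeloid (2.99 ± 0.22) and interstitial (2.26 ± 0.22) lines.

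Of 20 measured transcription factors of the AP-1, ETS and NF-kB families, 18 rose in the nephron line at 24 h (against 28.6% of all genes called in either direction) and 16 in the interstitial line (39.4%), while 13 rose and 2 fell in the endothelial line (43.2%) and 8 rose and 1 fell in the myeloid line (27.9%). Their median log2 fold change was 1.04, 0.90, 0.67 and 0.26 in that order of lines, against medians between -0.04 and 0.07 over all genes tested. At 4 h 17 of the 20 rose in the nephron line (against 18.1% of all genes), with Fosb at 5.39 ± 0.32, Fos at 5.02 ± 0.21 and Atf3 at 4.66 ± 0.22. At 4 h Mmp3 and Mmp10 had values of 0.13 ± 0.24 and 0.01 ± 0.13 and did not pass. Whether AP-1 acts on either gene was not tested. Fosl1, the AP-1 subunit Fra-1, was among the highest at 24 h in all 4 lines in IRI, at 4.09 ± 0.22 in the interstitial, 3.80 ± 0.22 in the nephron, 3.75 ± 0.22 in the endothelial and 2.65 ± 0.22 in the myeloid line.

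Of 18 measured cytokines and growth factors that induce metalloproteinases, 8 were called higher and 1 lower in the nephron line, 15 and 1 in the interstitial, 9 and 1 in the myeloid and 10, all higher, in the endothelial line. Il6 rose by 5.41 ± 0.32 and Il11 by 3.84 ± 0.28 in the interstitial line, the line in which Timp1 and Mmp3 rose most by their fold changes. Il6 rose by 2.46 ± 0.32 in the endothelial line. A link between these cytokines and Timp1 or Mmp3 was not tested. Cxcl2, a neutrophil chemokine, rose by 5.58 ± 0.41 in the interstitial, 4.34 ± 0.41 in the endothelial, 3.61 ± 0.41 in the myeloid and 2.70 ± 0.41 in the nephron line.

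Across the 17 TRAP group means, the genes whose log2 pattern was most like each member's are given as a description, since groups share lines and background. For Mmp8 these were Trem1 (Pearson r = 0.995), Clec4d (0.991) and Clec4e (0.986), receptors of myeloid cells, and for Mmp9 they were Il1r2 (0.971), Slc16a3 (0.963) and Clec4d (0.961). Mmp8 and Mmp9 correlated with each other at 0.960. For Timp1 they were Ptgs2 (0.954), which makes prostaglandins, Mmp3 (0.928) and the cytokine Csf3 (0.918). For Mmp2 they were Abi3bp (0.986), Col6a2 (0.984) and C1ra (0.980), and for Mmp3 they were Sdc1 (0.962), Hhipl1 (0.951) and Gpr161 (0.946). For Mmp10 they were Slc6a19os (0.975), Adgrg2 (0.965) and Tmprss11f (0.953). The best match was Myadm (0.955) for Timp2, Hp (0.903) for Mmp14, Fzd8 (0.888) for Timp3 and Lancl3 (0.882) for Adamts1. Mmp10 and Mmp3 correlated at 0.580 and Mmp10 and Mmp8 at 0.089, although all 3 lie within the same cluster on chromosome 9.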

How the data were processed

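RNA of 57 Affymetrix Mouse Gene 1.0 ST arrays in 19 groups was measured. The deposited values are linear probe set intensities, made by the authors with RMA and Affymetrix Expression Console 1.3.1, per the submitters' processing notes. Deposited log2 values had been assumed when the tests were chosen, so log2 of each intensity was taken first. Of 35556 probe sets, 21789 carried 1 gene symbol. For 999 genes with several, the probe set with the highest mean was kept.

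Group means were estimated by linear models in limma 3.58.1 (lmFit, contrasts.fit and eBayes), run under R 4.3.3. A fit of 45 arrays (19244 genes, 30 residual degrees of freedom) left out the backgrounds, and a fit of all 57 (19302 genes, 38 degrees of freedom) served comparisons with them. Genes with log2 above 5 in at least 3 arrays were tested, with the Benjamini-Hochberg adjustment taken over all genes of a comparison. Errors are standard errors of the fit. Few arrays per group limit the precision. The procedure was tested on simulated data.

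The members and gene lists were chosen with earlier results of these data known. All members were named, with up to 3 called genes of each list with the largest change and the 3 genes most like each member, and of these the text names some. Upstream windows are RefSeq's (GRCm38.p6), searched with Python 3.11.15, and figures were drawn with matplotlib 3.10.9. Alternatives changed the filter, normalization, probe set rule, arrays fitted and replicate block, and left out each array in turn.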

Additional observations from a re-analysis of the deposited data

Results flagged for a closer look

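In the L10a background after IRI, 1 of the 4 arrays stood apart for Mmp9: replicate 4 was at 7.58, and its gap to the next array was 0.904 of the group's range. Of 20 such sets of 4 arrays, 1 stood out in this way, and chance alone gives about 1 in 20.

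The response to IRI of a line differed from the mean response of the other 3 lines in 21 cases by limma's test. The share of all genes that passed this test was 23.3% (nephron), 15.9% (interstitial), 29% (endothelial) and 18.5% (myeloid). In the nephron line the log2 differences were 2.13 for Mmp10, 0.97 for Timp2, 0.45 for Mmp14, -0.77 for Timp3, -2.46 for Mmp9 and -3.04 for Mmp8. In the interstitial line they were 1.81 for Mmp3, 1.56 for Timp1 and -1.19 for Mmp8. In the endothelial line they were 0.97 for Mmp9, 0.93 for Mmp8, -0.9 for Mmp3, -0.9 for Mmp10, -0.93 for Mmp14 and -1.05 for Timp1. In the myeloid line they were 3.31 for Mmp8, 1.88 for Mmp9, 0.8 for Mmp14, -0.49 for Timp2, -0.9 for Mmp3 and -1.11 for Mmp10. Of these, the nephron value of Mmp14 (adjusted p = 0.0473) was lost in 16 of 24 refits that left out 1 array (adjusted p 0.0503 to 0.167) and the endothelial value of Timp1 (adjusted p = 0.0478) in 20 of 24 (adjusted p 0.0519 to 0.123). The myeloid value of Mmp3 was lost without myeloid IRI replicate 2 (adjusted p = 0.11) or sham replicate 3 (0.0667), and that of Timp2 without myeloid IRI replicate 1 (0.0621) or sham replicate 1 (0.0523).

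The moderated F test of the 4 responses gave adjusted p of 0.00901 for Timp1, 6.17e-05 for Timp2, 0.00201 for Timp3, 1.57e-05 for Mmp3, 8.16e-14 for Mmp8, 2.92e-11 for Mmp9, 5.64e-12 for Mmp10 and 1.32e-05 for Mmp14.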

How the results depend on the processing

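No fold change of a member turned direction while called under any alternative tried. Of 250 fold changes, 1 call was lost without the filter on low values, 4 were lost and 4 gained with quantile normalization, and none differed with the mean of all probe sets of a gene. With all 57 arrays in the fit, 3 of 190 were lost and 1 gained. With only the groups compared, 12 of 249 were lost and 11 gained. The number of members called in total RNA was then 3 in place of 8 (4 lost, and Mmp8 not tested), between sham and no surgery 0 in place of 2 in the interstitial line (1 with all 57 arrays) and 0 in place of 1 in the myeloid line. Leaving out 1 array at a time lost 99 and gained 11 of 2500 calls. The counts then ran from 1 to 2 at 4 h in the nephron line, and between sham and no surgery from 0 to 2 in the interstitial, 0 to 1 in the endothelial and 0 to 1 in the myeloid line. A background sham group left with 1 array was assumed to vary like the other groups.

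Replicate numbers did not pair the arrays: the correlation of deviations of same-numbered arrays ran from -0.24 to 0.315 over 19 pairs, with 4 above 0.1. With a replicate block, 5 members were called in the L10a background (6 without it), 8 in the wild-type background (9), 5 in the nephron line without surgery (6), 3 in the endothelial line without surgery (4), 5 for the nephron response against the others (6) and 7 for the interstitial line against the wild-type background (8). The other counts were the same with it, although in the interstitial comparison of sham with no surgery Timp2 lost its call and Mmp2 gained one. The small number of arrays per group and, for probe sets near the filter, the signal over background limit what could be detected.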
